A study of Mus musculus with 15 samples.

Results

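Interferon-stimulated genes are genes that cells switch on when they sense interferon, and 51 of them, chosen by name, were followed through 15 populations of mouse embryonic fibroblasts. All 51 symbols (51 of 51) were found in the deposited expression table, in 94 of its 65522 transcription units. In 40 of the 51 genes the table holds more than 1 unit at the same coordinates, so reads of these genes could have been divided between units. The unit with the highest mean over the 15 samples is called the leading unit of a gene here. Igtp and Irgm2 share their leading unit, which leaves 50 leading units. In 5 further cases a unit also carries the name of a neighbouring gene that is no member (Irf9, Rtp4, Eif2ak2, Gbp7 and Ifi47). No member unit (0 of 94) was at 0 in every sample, and 9 stayed under 1 FPKM in every sample.

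All cells were female and on a C57BL/6 background. WT cells (CIZ1 +/+) were 3 primary populations, grown from separate embryos and collected early in culture, and 3 culture-adapted lines, each derived from 1 of those populations by prolonged passaging. CIZ1 null cells (CIZ1 -/-), from mice bred from a single gene-trap stem cell clone, were 2 primary populations, 3 culture-adapted lines, and 4 primary samples carrying a GFP-CIZ1 transgene under doxycycline control, of which 2 were left untreated and 2 received the drug at 5 to 10 µg per ml. As in the study, the untreated transgenic population S06 (embryo E13.17) served as the third primary CIZ1 null population, since the adapted line S11 descends from it. The study lists the adapted line of E13.17 as carrying the transgene too, so S11 differs from S10 and S12 in this respect. Adapted lines arose from colonies that were replated as a whole, so each is a selected population rather than a clone. The study lists the 3 WT primary populations at the same passage and 2 of the 3 CIZ1 null ones at an earlier passage, so passage partly follows genotype. The second transgenic embryo is listed at an earlier passage still. The part of passage in the results was not tested. The study's methods name 2 embryos for the transgenic cells, so treated and untreated samples share embryos. Which embryo S13, S14 and S15 came from is not given in the labels, and the doxycycline comparison was not paired. If each embryo gave 1 untreated sample, S13 came from the second transgenic embryo.

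Type I interferons bind a receptor on the cell surface and act through the kinases JAK1 and TYK2, which phosphorylate STAT proteins such as STAT2. With IRF9 these form a complex that binds the interferon-stimulated response element (ISRE) in promoters. The products of the genes it activates include sensors of foreign RNA and DNA, enzymes that degrade RNA or block translation, membrane proteins that trap or exclude viruses, and the ubiquitin-like protein ISG15. Several of the genes encode parts of the sensing pathway itself, so that the response feeds back on itself. Fibroblasts are a well known source of interferon beta and respond to it.

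Promoter windows of 300 bases (250 before to 50 after the start, RefSeq, GRCm38.p6) were found for 39 of the 51 genes. The core of the ISRE, searched on both strands as GAAANNGAAA, was present in 22 of these 39 genes (56.4%), against 3.99% of the 27025 genes with a window and 3.44% of all 32851 windows. The gamma-activated site TTCNNNGAA, which reads the same on both strands, was present in 10 of 39 (25.6%), against 9.55% of all genes, and in 2 genes it overlapped an ISRE core. In 10 genes the window held 2 or more matches to the ISRE core, in some of them overlapping each other. These are matches of letters, not measured binding.

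The elements below are shown with 10 flanking bases on each side because they belong to the genes that the results turn on, or to near-identical gene copies. Capitals mark the ISRE core, and each is written in the direction in which the core reads. Those of Ifit1 (chr19:34640794-34640823, minus strand), Stat2 (chr10:128270266-128270295, minus strand), Gbp3 (chr3:142559989-142560018, minus strand) and Irgm1 (chr11:48871425-48871454, minus strand) come from genes called in culture adaptation of WT cells. Those of Isg15 (chr4:156200871-156200900, minus strand) and Bst2 (chr8:71537577-71537606, minus strand) come from 2 genes described below for WT and CIZ1 null primary cells. The core lies at -72 to -63 from the start of Isg15, -124 to -115 in Bst2, -85 to -76 in Ifit1, -45 to -36 in Gbp3, -24 to -15 in Irgm1 and -222 to -213 in Stat2.
Ifit1: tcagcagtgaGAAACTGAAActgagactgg
Stat2: ctagggaaagGAAACTGAAAccagggtgcg
Gbp3: ctgggaaataGAAACTGAAActgtgtcctg
Irgm1: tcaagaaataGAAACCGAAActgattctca
Isg15: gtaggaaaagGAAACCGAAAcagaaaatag
Bst2: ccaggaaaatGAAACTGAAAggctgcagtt

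Gene copies share these stretches. The 30 bases around the element were identical (0 of 30 bases differ) between Ifit3 (chr19:34583397-34583426) and Ifit3b (chr19:34607793-34607822), and between Oas1a (chr5:120907520-120907549) and Oas1g (chr5:120887606-120887635), and differed at 1 of 30 bases between Igtp (chr11:58199512-58199541) and Irgm2 (chr11:58214903-58214932). Separately from these promoters, reads from closely related transcripts can be assigned to either gene. That was not measured here, and the values of Ifit3 and Ifit3b, Oas1a and Oas1g, Igtp and Irgm2, Oasl1 and Oasl2, Mx1 and Mx2, and the Gbp genes are uncertain in that respect.
Ifit3: gaggaaagtaGAAACTGAAAcagacttaaa
Ifit3b: gaggaaagtaGAAACTGAAAcagacttaaa
Oas1a: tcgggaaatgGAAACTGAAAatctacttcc
Oas1g: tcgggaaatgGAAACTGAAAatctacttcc
Igtp: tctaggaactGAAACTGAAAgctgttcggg
Irgm2: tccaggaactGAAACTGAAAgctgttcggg

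Values are FPKM, fragments per kilobase of transcript scaled to library size, which the authors computed from poly(A)-selected RNA. The number of reads behind a value is unknown. Relative depth was estimated from the most common ratio between low values of the same unit in S01 and another sample. It ranged from 0.482 (S13) to 1.63 (S02) times that of S01. Only 10.6% (S09) to 17.5% (S14) of the low units lay at that ratio, so the estimate is rough. Ciz1 stood at 18.7 to 25 FPKM in the 6 WT samples, at 0.0546 to 0.724 in the untreated CIZ1 null samples, and at 296 and 191 in S14 and S15. The 10 fibroblast markers summed to between 8424 and 11145 FPKM in the primary samples and between 2579 and 6694 in the adapted lines. Within this list Thy1, which encodes a surface glycoprotein of fibroblasts, was listed at 0 in S08 and at 0.215 in S11. Twist2 was also low there (2.82 FPKM in S08 and 10.6 in S11, against 71.0 to 210 in primary samples), and S100a4 was at 228 in S11. Low values were not confined to these lines. In S07 Dcn was at 0.984 FPKM and Twist2 at 15.8. In S09 Col1a1 was at 139, Col3a1 at 10.0 and S100a4 at 241, while Dcn was at 905. Others on the list were present in both S08 and S11, such as the collagen gene Col1a2 (1349 FPKM in S08 and 570 in S11), Pdgfrb (70.7 and 50.1) and Vim (1013 and 677). The 11 leukocyte markers summed to between 5.31 and 52.7 FPKM in primary samples and between 1.19 and 4.90 in adapted lines, so they were lower in the adapted lines. The 5 endothelial markers summed to at most 2.83 FPKM and the 5 epithelial markers to at most 3.56 in any sample. The part of these marker levels in the results was not tested.

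The median level of the 50 leading units differed widely from sample to sample. Relative to the mean of the WT primary samples, their median in log2(FPKM + 1) was between -0.10 and 0.11 in the WT primary samples themselves, and 0.42, 0.44 and 0.32 in the CIZ1 null primary populations S04, S05 and S06. Among the adapted WT lines it was 1.47 in S07, 0.68 in S08 and 1.64 in S09, and among the adapted CIZ1 null lines 0.55 in S10, 0.13 in S11 and 2.25 in S12. The remaining transgenic samples stood at 1.24 (S13, untreated), -0.11 (S14, treated) and 2.18 (S15, treated). Over all 20031 units with a mean of at least 1 FPKM, the same median lay between -0.07 and 0.01 in every sample. S12 held the highest value of 21 leading units and S15 that of 22, S09 that of 5 and S07 that of 2, and S14 (14 units) and S01 (12 units) most often held the lowest. Relative depth was lowest in S13, S12 and S07 (0.482, 0.54 and 0.62) among the high samples, and 1.18 and 0.875 in S09 and S15, and its part in these levels was not tested. In bulk RNA, a larger share of responding cells and more RNA per cell cannot be told apart.

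**Figure D1:**
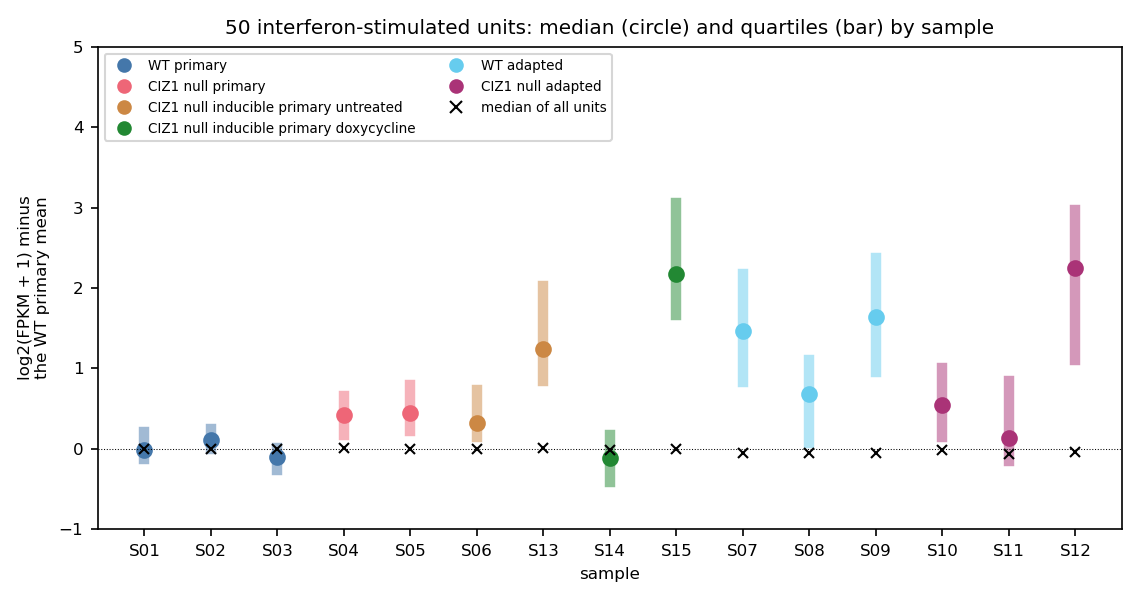
Median (circle) and quartiles (bar) over the 50 leading interferon-stimulated units in each of the 15 samples, as log2(FPKM + 1) minus the mean of the 3 WT primary samples; crosses are the median of all units. S12, S15, S09, S07 and S13 stand above 1, while S14 lies at -0.11 and the crosses stay near 0.

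The spread between samples of a group was wide in the adapted lines. The median SD of the 65 member units with a mean of at least 1 FPKM was 0.254 in WT primary cells and 0.238 in the 3 CIZ1 null primary populations, near the medians over all units of 0.185 and 0.216. In the adapted WT lines it was 0.920, against 0.360 over all units, and in the adapted CIZ1 null lines 1.12, against 0.357. The 1 FPKM limit was a mean over all 15 samples, so some units entered through the high samples. Gbp3, for example, had a mean of 0.627 FPKM in WT primary cells and 9.51 in the adapted WT lines. The SD was taken on log2(FPKM + 1), which understates spread at low levels, so primary and adapted SDs are not on an equal footing. The high lines were S07 and S09 among WT and S12 among CIZ1 null. Taking 2-fold on the FPKM + 1 scale as the limit, S07 was above S08 in 39 of 65 member units (8.98% of all units), and S09 above S08 in 37 of 70 (7.58% of all units). S12 was above S10 in 55 of 70 (8.52%) and above S11 in 59 of 68 (10.2%). These are comparisons of single libraries and carry no test. Units entered with a mean of at least 1 FPKM over the 2 samples, so some entered only through the higher sample.

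**Figure D2:**
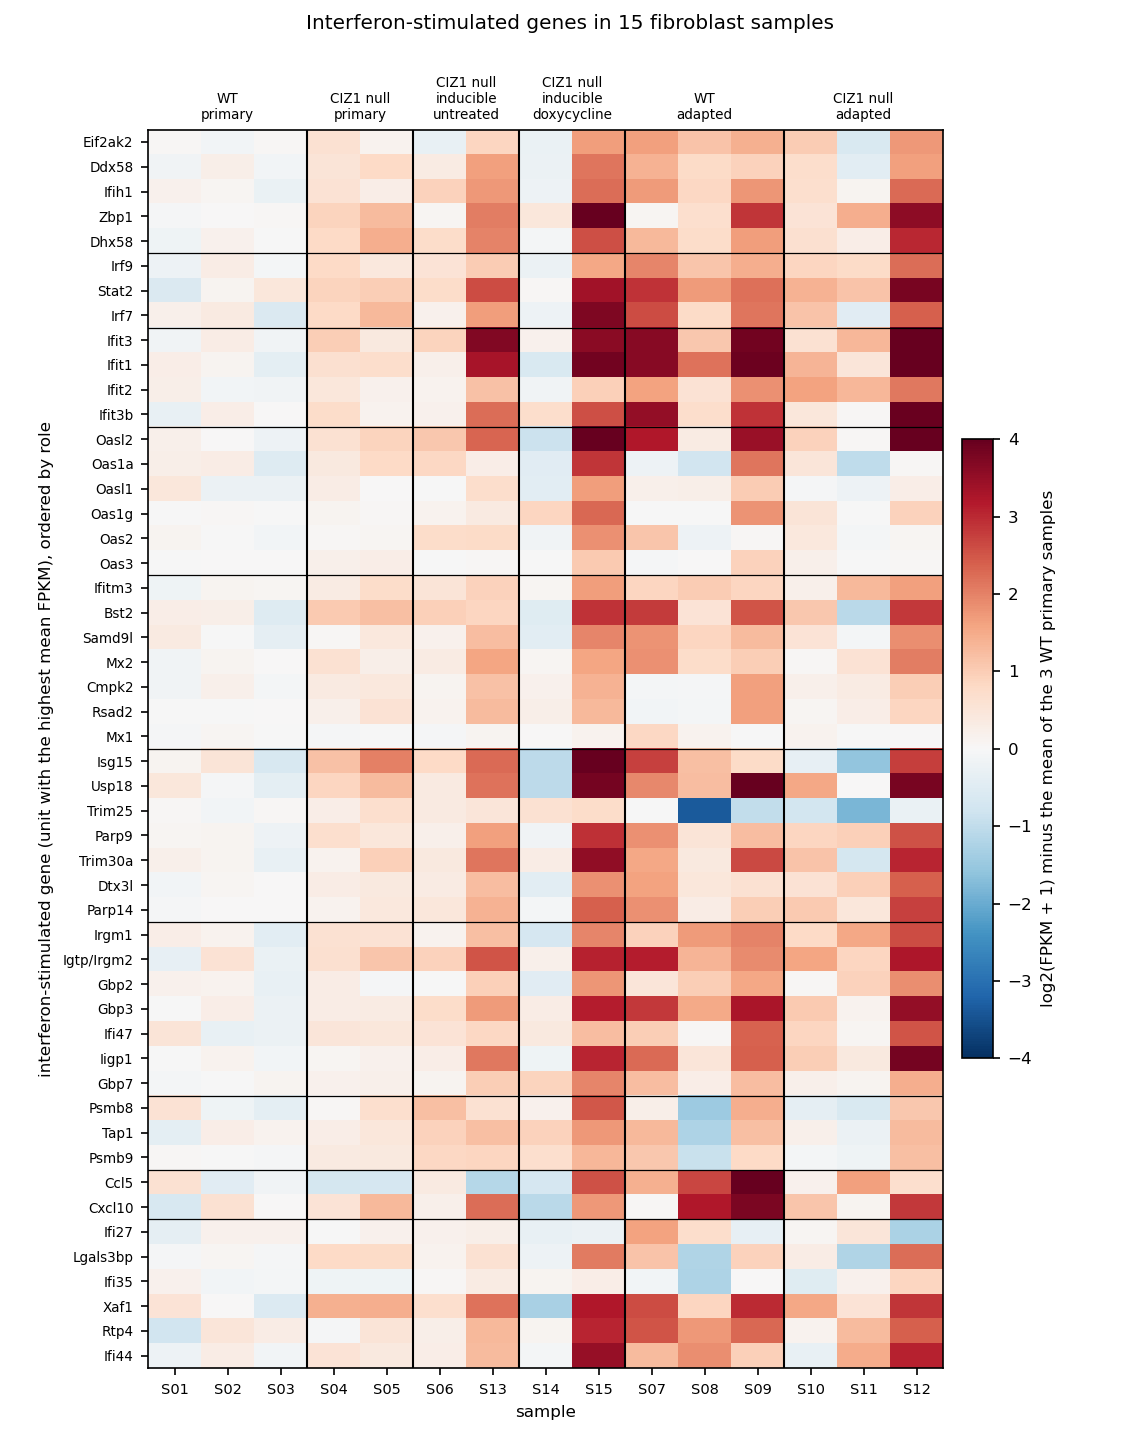
The 50 leading units (rows, ordered by role and then by mean level) in the 15 samples (columns, by group), coloured by log2(FPKM + 1) minus the mean of the 3 WT primary samples. Columns S12, S15, S09, S07 and S13 are red over most rows. S08 lies below the WT primary range in 9 of the 50 rows, among them Trim25, the 3 antigen processing genes, Ifi35 and Lgals3bp.

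The first question was what prolonged culture did to these genes in WT cells. In adapted WT lines 21 of the 64 member units tested rose and 0 fell (limma, adjusted p under 0.05), against 2.87% of all units called higher. The 21 units represent 15 genes. Of all 19919 units, 1330 were called lower. With the embryo as a block, since each adapted line descends from a primary population in the comparison, 6 of these 21 units passed, from Ifit1, Irf9, Gbp3, Samd9l and the unit of Igtp and Irgm2. Calls over all units fell from 1902 to 499 with the block. The median log2 change was 1.33 over the member units and -0.05 over all 19919 units, and in 47 of 64 every adapted line stood above every primary population, against 17.3% of all units. At an unadjusted p under 0.05 the member units numbered 47 higher and 0 lower, against 12.7% of all units higher and 3553 of 19919 lower. Because 3 adapted lines derive from the 3 primary populations, each can be set against its own parent: 60 of 64 member units were higher in the adapted line of E14.4 (median log2 change 1.58), 61 of 64 in that of E13.1 (1.64) and 53 of 64 in that of E13.8 (0.75). In 52 of 64 units the adapted line was higher in 3 of 3 embryos, against 24.3% of all units.

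Of the Ifit genes, whose products bind viral RNA and restrain its translation, Ifit1 rose the most of all called units. It stood at 1.64, 1.40 and 0.700 FPKM in the primary populations S01, S02 and S03, and at 26.5, 8.85 and 32.6 in the adapted lines S07, S08 and S09. The groups did not overlap, and the log2 change was 3.24 ± 0.477 (SE, n = 3 against 3, limma adjusted p = 0.0181). Ifit3 went from 1.27, 2.10 and 1.26 FPKM to 30.2, 4.36 and 35.3, with a log2 change of 2.86 ± 0.717 that missed the threshold (adjusted p = 0.0559). S08 was far below S07 and S09. Ifit3b, the near copy, had a log2 change of 2.36 (adjusted p = 0.0807), and Ifit2 one of 1.34 (adjusted p = 0.0590).

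The factors that carry the signal also rose. Stat2, which encodes a part of the ISRE-binding complex, stood at 2.27, 4.29 and 5.73 FPKM in primary cells and at 35.1, 14.8 and 21.7 in adapted lines, a log2 change of 2.27 ± 0.388 (adjusted p = 0.0245, or 0.0548 with the embryo block). Irf9, which encodes the DNA-binding part of that complex, stood at 8.29, 12.2 and 9.15 FPKM against 40.7, 22.1 and 28.5, a log2 change of 1.51 ± 0.267 (adjusted p = 0.0263, or 0.0474 with the block). Both were higher in every adapted line than in any primary population. In this role 4 of 5 units tested were called, and the fifth, Irf7, an amplifier of interferon production, had a log2 change of 1.84 (adjusted p = 0.0684).

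Among the sensors of foreign nucleic acid 5 of 8 units were called, from 4 genes. Eif2ak2, encoding the RNA-activated kinase PKR, had the smallest error of these leading units, with 12.9, 11.3 and 12.8 FPKM in primary cells against 40.7, 28.6 and 35 in adapted lines. Its log2 change was 1.41 ± 0.185 (adjusted p = 0.0146, or 0.0518 with the embryo block). The RNA helicases Ifih1 (MDA5), Dhx58 (LGP2) and Ddx58 (RIG-I) rose by 1.44, 1.25 and 1.03 on the log2 scale (adjusted p = 0.0381, 0.0487 and 0.0403). With the embryo block these were 0.0514, 0.0907 and 0.0592. Zbp1, a sensor of left-handed nucleic acid, had a log2 change of 1.20 (adjusted p = 0.288), with 0.235 FPKM in S07 and 7.52 in S09.

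Of the guanylate-binding and immunity-related GTPases, which attack vacuoles of intracellular pathogens, 4 of 9 units were called. Gbp3 stood at 0.595, 0.931 and 0.355 FPKM in primary cells and 10.4, 3.65 and 14.5 in adapted lines, a log2 change of 2.54 ± 0.452 (adjusted p = 0.0265). Irgm1, a regulator of the other GTPases of its family, stood at 18.3, 16.8 and 11 FPKM against 29.5, 51.4 and 62.7, a log2 change of 1.54 ± 0.329 (adjusted p = 0.0395, or 0.0686 with the embryo block). S07 was the lowest of the adapted lines here, unlike in Ifit1, Stat2 and Gbp3, where S08 was. The shared unit of Igtp and Irgm2 had a log2 change of 2.14 (adjusted p = 0.0471).

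Membrane-acting and other effectors added 4 of 7 units, from Ifitm3 and Samd9l. Ifitm3, which blocks entry of enveloped viruses, had the highest level of any member. Its 243, 297 and 293 FPKM in primary cells compared with 504, 562 and 507 in adapted lines, a log2 change of 0.92 ± 0.149 (adjusted p = 0.0215, or 0.0573 with the embryo block), and the 3 adapted lines were close to each other. Samd9l, an inhibitor of viral translation, had a log2 change of 1.30 in its leading unit (adjusted p = 0.0485, or 0.0634 with the block) and 1.57 in the other, which passed in both fits. Bst2 (tetherin), which holds budding viruses at the cell surface, stood at 65.5, 63.9 and 37.1 FPKM against 383, 78.7 and 315. Its log2 change of 1.96 ± 0.608 did not pass (adjusted p = 0.0882), and S08 lay only just above the primary range.

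No unit passed in the remaining named roles (0 of 3 in the Oas family, 0 of 11 in the ISG15 system with Trim and Parp genes, 0 of 3 in antigen processing and 0 of 2 chemokines). Isg15, the ubiquitin-like modifier, stood at 12.5, 16.8 and 6.93 FPKM against 81.3, 27.5 and 20.2, a log2 change of 1.57 (adjusted p = 0.116). Oasl2, of the oligoadenylate synthetase-like family, had a log2 change of 2.33 (adjusted p = 0.110), and Usp18, which removes ISG15 from proteins and dampens the receptor, one of 2.45 (adjusted p = 0.0852). The chemokines were ordered differently: Ccl5 stood at 4.85 FPKM in S07, 13.1 in S08 and 69.7 in S09, and Cxcl10 at 1.16, 18.4 and 27.4, so that S07 was their lowest adapted line. For the immunoproteasome subunits Psmb8 and Psmb9 and the peptide transporter Tap1 the changes were 0.08, 0.32 and 0.42 on the log2 scale, with S08 below every primary population in all of them (Tap1 at 16.2, 1.98 and 15 FPKM in S07, S08 and S09). For Trim25, a ubiquitin ligase that activates RIG-I, the leading unit stood at 12.2, 10.9 and 12.3 FPKM in primary cells. It was at 11.7, 0.25 and 5.43 in adapted lines, a log2 change of -1.45 (limma adjusted p = 0.263). The other units of Trim25 fell less, with log2 changes of -0.90 and -0.31. Among the ungrouped members, Rtp4 (2.17, adjusted p = 0.0263) and Ifi44 (1.36, adjusted p = 0.0420) were called, though not with the embryo block (0.0539 and 0.0744), while Ifi35 and Lgals3bp had log2 changes of -0.44 and 0.29.

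The filter on low values matters here. Of the 64 units that entered, 46 had a mean of at least 1 FPKM in the primary WT cells alone, and 17 of the 21 calls were among them. Without the filter, 90 of all 94 member units were higher in adapted lines, with 6 called, against 2.74% of all units called in either direction. Blocking on embryo gave 8 calls among the member units, 6 of them among the 21 and 2 others, the leading units of Xaf1 and Irf7 (adjusted p = 0.0484 for each in limma), while 15 of the 21 missed the threshold. Without any 1 of S01, S02 and S03 none were called (0 of 65 each), while calls over all units also fell from 1902 to between 62 and 70. Without S08 there were 34, with 1296 calls over all units.

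**Figure D3:**
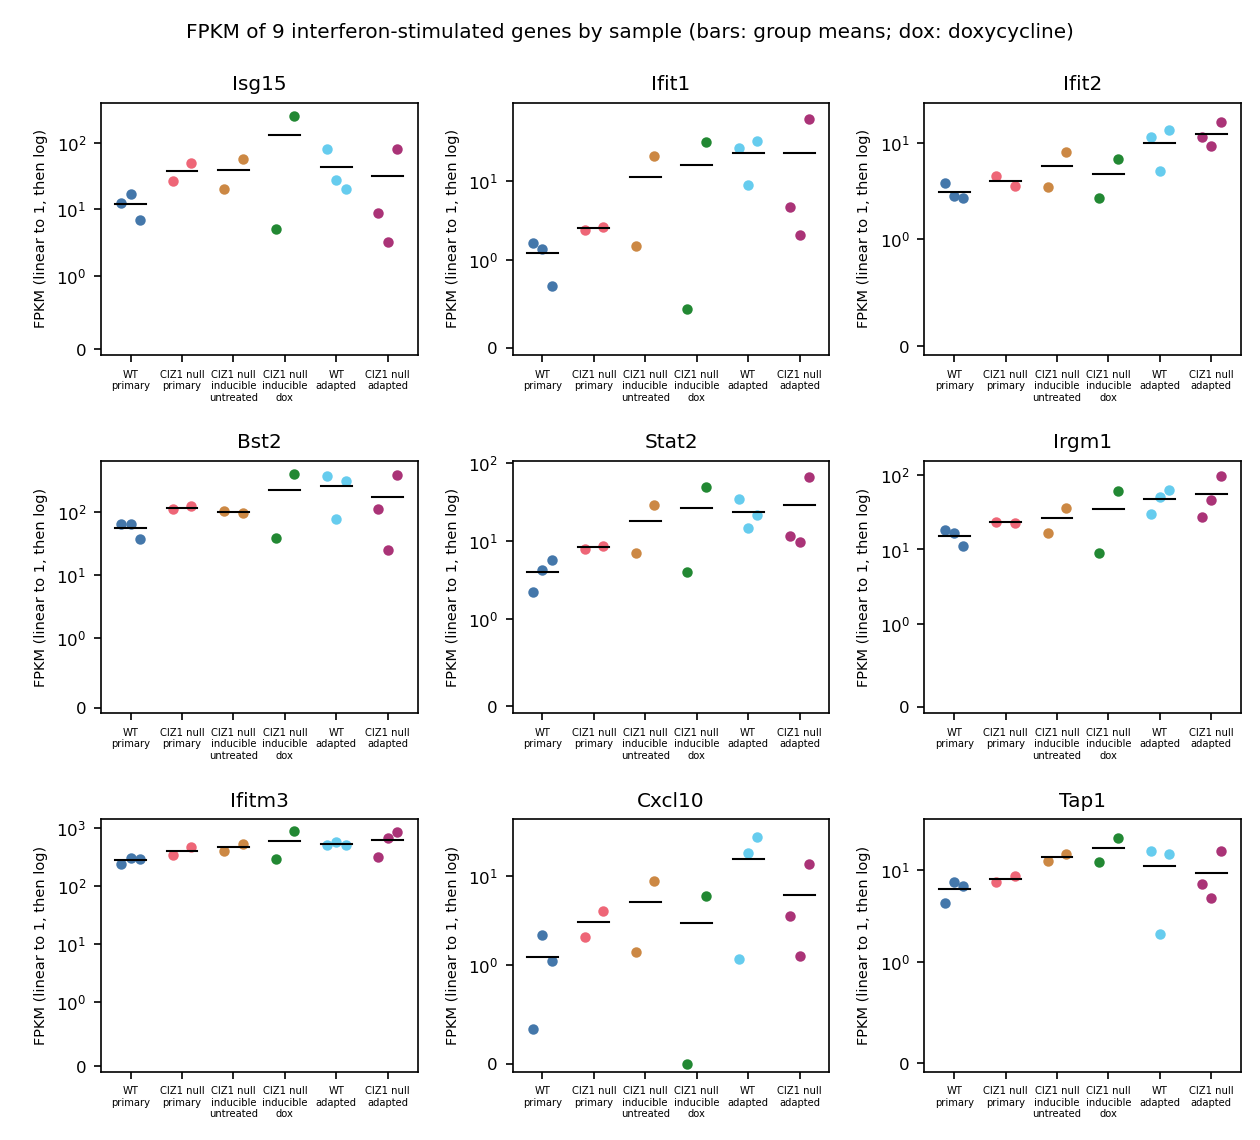
FPKM of the leading unit of 9 interferon-stimulated genes in each sample, by group; the axis is linear from 0 to 1 FPKM and logarithmic above, and bars are group means. For Ifit1 the 3 WT adapted points (8.85 to 32.6) lie above the 3 WT primary points (0.700 to 1.64), and in the CIZ1 null adapted group S12 is the highest point in every panel.

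In CIZ1 null cells the same comparison gave 2 of 66 member units called, both of Ifit2, against 1.40% of all units called higher, and 0 lower, against 695 of 20044 units called lower. At an unadjusted p under 0.05 there were 5 of 66 higher and 1 lower, against 12.5% of all units higher and 16.8% lower. The median log2 change was 0.68 (-0.04 over all 20044 units). In 14 of 66 units every adapted line stood above every primary population, against 17.5% of all units. Of the 66 units, 53 had a mean of at least 1 FPKM in the primary CIZ1 null cells alone, and the 2 calls were among them. Without the filter the median over all 94 member units was 0.43. The leading unit of Ifit2 stood at 4.59, 3.59 and 3.54 FPKM in the primary populations S04, S05 and S06 and at 11.6, 9.36 and 16.5 in the adapted lines S10, S11 and S12. The 3 adapted lines were all high, and the log2 change was 1.43 ± 0.240 (adjusted p = 0.0340). Blocking on embryo moved this adjusted p to 0.0763, and no member unit was called (0 of 66, with 6 higher and 1 lower at an unadjusted p under 0.05). Calls over all 20044 units fell from 975 to 10 with the block.

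Most other members followed a single line. The adapted line of E14.2, S12, was above its own primary population in 63 of 66 units, with a median log2 change of 1.75. The lines of E13.15 (S10) and E13.17 (S11) were above theirs in 37 and 33 of 66, with medians of 0.13 and -0.03. Ifit1 stood at 2.44, 2.61 and 1.53 FPKM in primary cells and at 4.68, 2.11 and 61.6 in adapted lines, and Ifit3 at 3.97, 2.33 and 3.69 against 2.81, 5.26 and 129. Their log2 changes of 1.71 ± 1.06 and 1.77 ± 1.26 did not pass (adjusted p = 0.321 and 0.387). Iigp1, a GTPase, had a change of 1.57 (adjusted p = 0.268). Trim25 was the only member unit tested with all adapted lines below all primary populations (14.3, 19.5 and 15.3 FPKM against 6.65, 2.59 and 9.68), a log2 change of -1.37 (adjusted p = 0.0905). Of all 20044 units, 3929 stood apart in that direction. Without S12 the median over the 56 member units tested was 0.02, none of them was called, and 3 were higher and 6 lower at an unadjusted p under 0.05. Calls over all 19949 units numbered 40, and the share of all units at the unadjusted threshold is not given here.

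An interaction term fitted to the 12 samples compared adaptation in the 2 genotypes. No member unit passed (0 of 65 called by limma, and 0 at an unadjusted p under 0.05, against 2.48% of all units with a smaller change in CIZ1 null cells and 431 of 20046 with a larger one). The median difference was -0.63 on the log2 scale, with 57 of 65 below 0. Among the leading units the differences furthest from 0 were those of Isg15 (-2.61 ± 1.31), Bst2 (-2.08 ± 1.19) and Ccl5 (-1.87 ± 1.08), with an adjusted p of 0.996 for each. Xaf1, an antagonist of the apoptosis inhibitor XIAP, and Irf7 had differences of -1.67 and -1.56. Without S12 the median was -1.27 and 29 of 63 member units had an unadjusted p under 0.05, with the smaller change in CIZ1 null cells. None were called (0), nor were any of all 20028 units. The share of all units at the unadjusted threshold without S12 is not given here. The 2 adaptation effects are therefore not shown to differ.

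**Figure D4:**
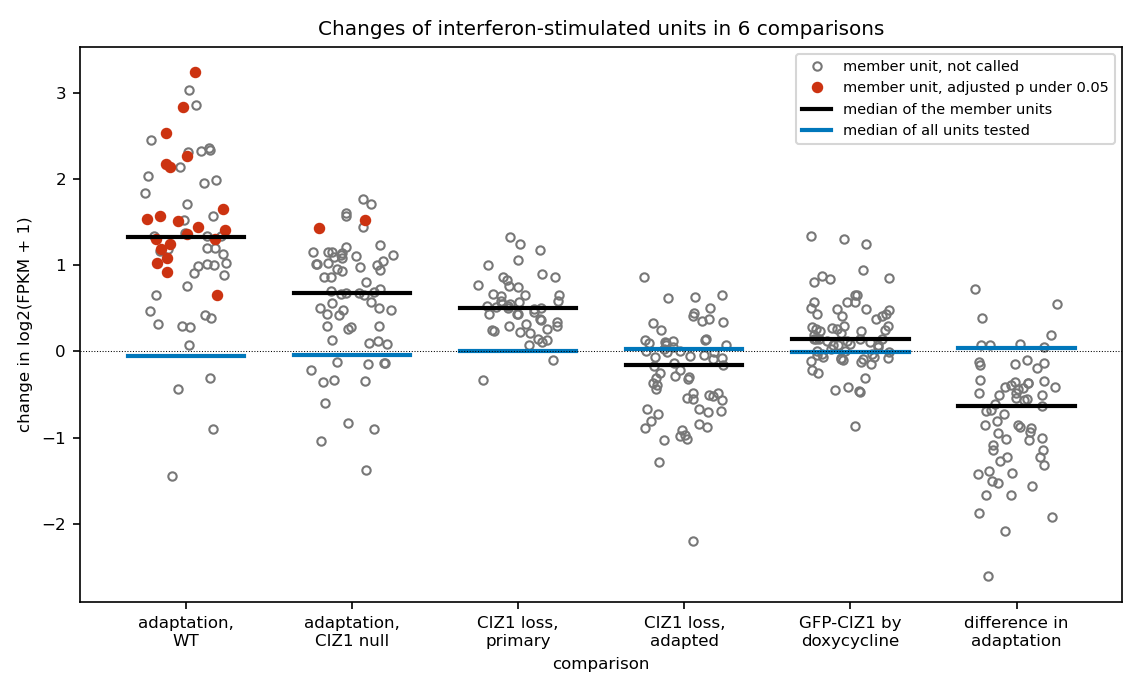
Change in log2(FPKM + 1) of each member unit tested in 6 comparisons (adapted minus primary, CIZ1 null minus WT, treated minus untreated, and CIZ1 null minus WT adaptation); filled points passed at an adjusted p under 0.05, and lines are medians over member units and over all units. Filled points occur in the first comparison (21) and the second (2), and the medians of the member units are 1.33, 0.68, 0.51, -0.16, 0.14 and -0.63.

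The next question was what loss of CIZ1 did in primary cells. No member unit passed the adjusted test (0 of 48 called, against 0% of all units called higher, where Ciz1 itself was the 1 unit called). At an unadjusted p under 0.05, 24 of 48 member units were higher in CIZ1 null cells and 0 lower, against 3.53% of all units higher and 535 of 19566 lower. In 27 of 48 every CIZ1 null population stood above every WT population, against 6.13% of all units, and in 0 every one stood below, against 1119 of 19566 units. The median log2 change was 0.51 over the member units and close to 0 over all units. WT primary cells are the same 3 samples as in the adaptation of WT cells, so the directions of these comparisons are not independent.

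The values below did not pass the adjusted test and came from several roles. Isg15 stood at 26.9, 49.4 and 20.4 FPKM in S04, S05 and S06, above the 12.5, 16.8 and 6.93 of the WT populations, a log2 change of 1.33 ± 0.394 (adjusted p = 0.693). Bst2 stood at 111, 124 and 105 FPKM against 65.5, 63.9 and 37.1, a change of 1.06 ± 0.226 (adjusted p = 0.624), with little spread among the CIZ1 null populations. Xaf1 stood at 12.8, 12.9 and 7.25 FPKM against 6.54, 4.13 and 2.49, a change of 1.18 ± 0.328 (adjusted p = 0.681). None of these groups overlapped.

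Dhx58, Igtp with Irgm2, Oasl2 and Stat2 had changes of 1.0, 0.90, 0.87 and 0.87, each with groups that did not overlap. For Psmb9 and Tap1 the log2 changes were 0.53 and 0.55, also without overlap. Ifitm3 stood at 347, 465 and 397 FPKM against 243, 297 and 293, a change of 0.53 ± 0.146. For Ifit1 the change was 0.52 with overlapping groups (S06 at 1.53 FPKM), and for Ccl5 and Ifi35 it was -0.33 and -0.10. These values are differences in log2(FPKM + 1), which understate the change of genes at low levels.

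With all 4 untreated primary CIZ1 null samples, which adds S13, 27 of 58 member units had an unadjusted p under 0.05 and all were higher, and none were called (0). Calls over all 19648 units numbered 2 in that fit, and the share of all units at the unadjusted threshold is not given here. With all 15 samples sharing one estimate of the spread, the number of the 48 member units at an unadjusted p under 0.05 was 0. The leukocyte markers summed to 9.39, 20.9 and 9.76 FPKM in S01, S02 and S03 and to 52.7, 5.31 and 35.1 in S04, S05 and S06, and their part in these differences was not tested.

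In adapted cells the loss of CIZ1 gave no call (0 of 67), and 0 units were higher and 1 lower at an unadjusted p under 0.05, against 365 of 19976 units higher and 2.20% lower. In 0 of 67 did the groups stand apart, against 3.74% of all units with every CIZ1 null line below every WT line and 908 of 19976 with every one above. The median log2 change was -0.16. Isg15 stood at 81.3, 27.5 and 20.2 FPKM in the WT lines and at 8.92, 3.16 and 82.6 in the CIZ1 null lines, and Bst2 at 383, 78.7 and 315 against 114, 24.7 and 386, so that S12 lay at the top of both genotypes and S11 at the bottom. The unit at an unadjusted p under 0.05 was Ccl5, at 4.85, 13.1 and 69.7 FPKM against 1.5, 5.87 and 2.49 (log2 change -2.2 ± 0.905, adjusted p = 0.998). Changes for Ifit1, Gbp3, Rtp4 and Ifi27 were -1.01, -0.97, -0.91 and -0.89, each with overlapping groups. The sign of the median turned with single libraries, from -0.80 without S12 to 0.16 without S11.

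In the primary cells with the inducible transgene, Ciz1 stood at 0.171 and 0.514 FPKM without doxycycline and at 296 and 191 with it. No interferon-stimulated unit passed (0 of 71 called, 0 at an unadjusted p under 0.05 in either direction, against 0.728% of all units higher and 203 of 19768 lower). Treated samples were both above both untreated ones in 2 of 71, against 8.92% of all units, and both below in 1, against 2140 of 19768 units. The median log2 change was 0.14. Isg15 stood at 20.4 and 58.2 FPKM in the untreated samples S06 and S13 and at 5.04 and 257 in the treated samples S14 and S15, so that the treated pair enclosed the untreated pair. Ifit1 gave the same order, with 1.53 and 20.8 FPKM against 0.440 and 31.4, and so did Stat2, with 7.10 and 29.0 against 4.05 and 49.0. The leading unit of Oas1g, at 0.127 and 0.294 FPKM against 0.821 and 3.93, was 1 of the 2 without overlap (log2 change 1.31), and Ifi27 stood lower in both treated samples (111 and 116 against 81.5 and 83.7 FPKM). Zbp1, Ccl5, Ifi44, Gbp7, Irf7 and Cxcl10 had changes of 1.25, 1.34, 0.94, 0.88, 0.84 and -0.87, all with overlapping groups.

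Within each pair of transgenic samples the list split sharply. The 2 samples of a pair may come from different embryos at different passages, whose part in the split was not tested. S13 was at least 2-fold above S06 in 35 of 65 member units and 2-fold below it in 0, against 5.41% of all units above. S15 was at least 2-fold above S14 in 69 of 75 and 2-fold below in 0, against 4.24% of all units above. All 75 units that entered (75 of 75) were higher in S15 than in S14, with a median log2 difference of 2.29, while the median over all units was 0.00. Units entered with a mean of at least 1 FPKM over the 2 samples, so some entered only through the higher sample. Iigp1, for example, stood at 0.0257 FPKM in S14 and 8.64 in S15, and at 0.392 in S06 and 4.08 in S13. A second unit of Trim30a, which did not enter, was lower in S15 (0.0357 FPKM) than in S14 (0.0535). The leukocyte marker sums of these samples were 35.1 and 25.9 FPKM in S06 and S13 and 25.6 and 35.7 in S14 and S15, and their part in the split was not tested. Leaving out S14 gave a median change with doxycycline of 1.30 and leaving out S15 one of -0.99, so the direction rests on single libraries.

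The other genes of the pathway were read from a separate list of 50 genes, of which 49 were in the table. Of the 10 interferon genes looked for, 8 were listed at 0 in every sample, among them Ifnb1, and Ifna2 and Ifne were above 0 in 1 sample each, at 0.0712 and 0.153 FPKM. Receptor genes were expressed throughout: Ifnar1 ranged from 9.73 to 25.3 FPKM and the unit shared by Ifnar2 and Il10rb from 32.3 to 64.9. Jak1, a kinase bound to the receptors, ranged from 34.3 to 73.0 FPKM. In adaptation of WT cells 2 of 37 genes tested fell. They were Irf5, a transcription factor of the interferon regulatory family (-1.05, adjusted p = 0.0351) and Ifngr2, a chain of the interferon gamma receptor (-1.02, adjusted p = 0.0340). In each of the other comparisons 0 genes of this list passed, out of 36 to 38 tested. The leading unit of B2m, the light chain of MHC class I, stood at 5924 FPKM in S12 against 735 to 2788 in the other samples.

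The promoter matches can be set beside the changes, as a description only. In adaptation of WT cells the leading units of genes with the core had a median log2 change of 1.56 (18 units, 9 called), those with a window lacking it 1.13 (15 units, 3 called) and those with no window 1.23 (10 units, 2 called). For loss of CIZ1 in primary cells these medians were 0.62 (14 units), 0.54 (14 units) and 0.34 (6 units). Irf9, Ifit2, Xaf1 and Samd9l were among the genes whose window held no match, which says only that these letters are absent from that stretch.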

How the data were processed

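RNA-seq of 15 samples was analysed from a deposited table of FPKM per transcription unit. The authors trimmed reads with cutadapt 1.8.3, aligned them to GRCm38 with HISAT2 2.0.5 and assembled, merged and normalised units with Cufflinks, Cuffmerge and Cuffnorm. A second table (Cuffdiff 2.2.1) holds only the authors' log2 fold changes, p-values and q-values for 4 comparisons and was not used. The deposited FPKM were converted to log2(FPKM + 1), and units with a mean of at least 1 FPKM over the compared samples were tested with limma 3.58.1 (trend, no covariates) in R 4.3.3. p was adjusted by Benjamini-Hochberg over all units tested, with a threshold of 0.05. The fit was tested on simulated data. Without counts, depth and counting intervals cannot be given.

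Groups came from the labels. The embryo of 12 samples was read by exact match of their values to the study's per-line lists, which pairs each adapted line with its primary population. Within pairs, departures from the group mean had correlations of 0.211 (E14.4), 0.146 (E13.1), -0.00539 (E13.8), -0.019 (E14.2), 0.106 (E13.15) and 0.0881 (E13.17). One untreated transgenic sample (S06) has a source name that reads S13. Its values matched those listed for E13.17.

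The members and all gene lists were chosen with earlier results of these data known. Named units are the 2 with the highest mean in each role, every unit called, and the 8 with the largest changes in each comparison. Genes named beyond these were chosen after their values were seen, and 1 gene of the pathway list is not reported here. Alternatives were a pseudocount of 0.1, no filter, a mean of at least 5 FPKM, quantile normalization, all 15 samples in 1 fit, the embryo block, a wider or narrower choice of CIZ1 null primary cells, and leaving out 1 sample at a time. Promoter windows were taken from RefSeq tables of GRCm38.p6, and figures were drawn with Matplotlib 3.10.9 in Python 3.11.15.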

Additional observations from a re-analysis of the deposited data

How the results depend on the processing

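FPKM without counts, 2 or 3 samples a group and the wide spread among adapted lines limit all of these comparisons. Against 21 of 64 member units called in adaptation of WT cells, there were 6 without a filter, 3 with all 15 samples in 1 fit, 8 with the embryo as a replicate block, and 0 to 34 when a sample was left out. Calls over all units in these settings were 988, 2429, 499 and 62 to 2972, against 1902 in the main fit. The fit of all 15 samples thus gave more calls over all units and fewer among the members, while the block gave fewer of both. Against 2 of 66 in CIZ1 null cells, there were 0 without a filter, 0 with the embryo block, 0 with all 4 untreated primary CIZ1 null samples, 0 with only S04 and S05, and 0 to 7 when a sample was left out. Calls over all units, in the same order, were 322, 10, 449, 30 and 25 to 2999, against 975 in the main fit. The block changed no call in the difference between genotypes. In the other 4 comparisons 0 units were called under every alternative run, among them the pairing by embryo for the difference between genotypes. The median log2 change for loss of CIZ1 in primary cells was 0.30 without a filter, against 0.51. With a sample left out the medians ranged from 1.22 to 1.55 (adaptation, WT), 0.02 to 1.03 (adaptation, CIZ1 null), 0.42 to 0.55 (loss, primary), -0.80 to 0.16 (loss, adapted), -0.99 to 1.30 (doxycycline) and -1.27 to -0.31 (difference). More units enter without the filter and fewer samples when one is left out. Beyond that the cause was not tested.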
